A study of Gasterosteus aculeatus with 34 samples.

Results

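The genes described here are 120 Ensembl genes of the threespine stickleback whose transcripts were several times more abundant in the telencephalon than in the diencephalon. They were taken from 20747 Ensembl genes outside the Y chromosome, among 22295 gene models counted. A level is given in CPM, the counts of a gene per 1000000 counts over all gene models of its library, and L stands for log2(CPM + 0.1). A gene became a member when its mean L over the 17 telencephalon libraries exceeded that over the 17 diencephalon libraries by at least 2, which is about 4-fold, when its telencephalon mean was at least 2 CPM, and when the SD of its L over the telencephalon libraries was under 1. The difference between the regions and the spread within the telencephalon therefore chose the members, and both are given as descriptions without a test. Members are named by identifier, since 0 of the 22295 identifiers matched the reference gene table and the files give no names. The region labels were accordingly not checked against marker genes, and no role is given to any member.

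The telencephalon is the front of the vertebrate forebrain and in fish holds the pallium and the subpallium, which take part in learning, the weighing of social stimuli and the choice of action. The diencephalon lies behind it and holds the thalamus and the hypothalamus, through which hormones, feeding and reproduction are regulated. The regions arise from neighbouring parts of the embryonic forebrain and keep different sets of active genes in the adult, so a gene that is much more active in one region can mark tissue of that region in a dissected sample.

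Brains came from 17 males of the white ecotype, the laboratory-reared offspring of wild parents from Canal Lake, Nova Scotia, and each male gave a library of each region. The groups are defined by the last of 8 trials, 60 minutes before dissection, and every male had met all 4 treatments more than once by then, so the controls had also met females and rivals. The last trial was a courtship opportunity, with a gravid female in a flask, for 4 males, a territorial challenge, with a rival male in a flask, for 5 males, the tradeoff, with both at once, for 4 males, and a control with 2 empty flasks for 4 males. Libraries were made from polyadenylated RNA with a stranded kit. Gene models received 22802875 to 36656215 counts in a telencephalon library and 16522465 to 34384860 in a diencephalon library, and alignments that were not unique made 11.3 to 21.9% of a telencephalon library and 3.72 to 4.73% of a diencephalon library. Whether that difference reaches any member was not tested. Values are means ± SD over males, and the replicates are separate males.

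The libraries of control male 304 stood apart from all others in these genes, and results are therefore given with and without that male. Its telencephalon library held the lowest level of 96 of the 120 members, and its diencephalon library held the highest level of 96. No share of all gene models is given beside these counts, so they describe the members only. Among the other telencephalon libraries, those of challenge males 322 and 298 were the lowest. In tissue RNA, fewer cells of a type and less RNA per cell cannot be told apart.

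Together the members made 1.05% ± 0.155 of the gene counts of a telencephalon library and 0.153% ± 0.0458 of those of a diencephalon library (SD, n = 17 each). Without male 304 these shares were 1.07% ± 0.105 and 0.142% ± 0.00982 (n = 16 each). The median member had a mean of 26.4 CPM in the telencephalon, with members between 2.15 and 1327 CPM, and a mean of 4.47 CPM in the diencephalon, with members between 0.0425 and 138 CPM. In the telencephalon 36 members had a mean under 10 CPM, 61 lay between 10 and 100 CPM, 21 between 100 and 779 CPM, and 2 higher still, at 1096 and 1327 CPM. In the diencephalon 31 members were under 1 CPM, 57 between 1 and 10 CPM, and 32 at 10 CPM or above. Most members thus stayed measurable in the diencephalon. Only 8 had a diencephalon library without a single count, and none had a telencephalon library without one, the lowest telencephalon count of any member being 11.

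**Figure D1:**
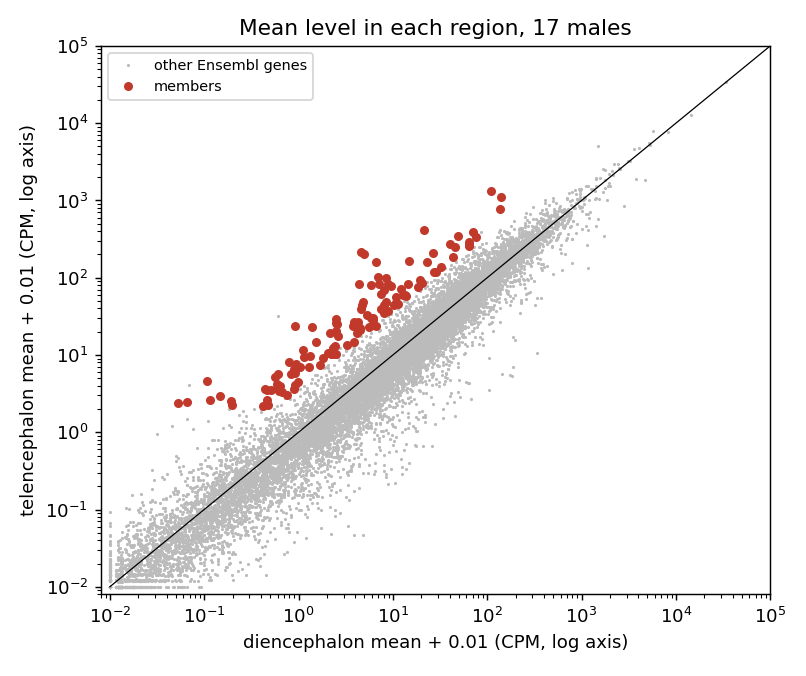
Mean level of each Ensembl gene in the telencephalon (vertical log axis, CPM + 0.01) against the diencephalon (horizontal log axis, CPM + 0.01), over 17 males, with the 120 members in red and the diagonal marking equal levels. The members lie above the diagonal over the whole range of levels, with diencephalon means of 0.0425 to 138 CPM.

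The difference in mean L had a median of 2.57 over the members. It lay between 2 and 3 for 82 members, between 3 and 4 for 28, and at 4 or more for 10. In all 17 males, 117 of the 120 members were higher in the telencephalon than in the diencephalon of the same male. Every telencephalon library lay above every diencephalon library for 107 members, and the same held for 5.3% of all gene models. Without male 304 this count was 112, against 6.19% of all gene models. The rule used this contrast, so nothing is read from these shares. The 13 members with overlapping regions were mostly overlapped by a few animals: the highest diencephalon value was that of male 304 in 7 of them and that of tradeoff male 302 in 2.

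ENSGACG00000005648 had the largest difference, 6.69 in mean L. Its telencephalon libraries ranged from 106 to 275 CPM with a median of 229 CPM, and its diencephalon libraries from 0.398 to 41.8 CPM with a median of 2.12 CPM. Both extremes nearest the other region belonged to male 304, whose telencephalon held 106 CPM and whose diencephalon held 41.8 CPM. The other males held at least 166 CPM in telencephalon and at most 5.02 CPM in diencephalon libraries, and the regions did not overlap. The low diencephalon level of this gene varied widely among the males other than 304, from 0.398 CPM in challenge male 298 to 5.02 CPM in challenge male 317.

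The member that followed, ENSGACG00000003160, differed by 6.01 in mean L. It had 109 to 242 CPM (median 207) in the telencephalon and 1.36 to 42.7 CPM (median 2.75) in the diencephalon. Male 304 again held both the 109 and the 42.7 CPM, and no other diencephalon library exceeded 3.76 CPM. ENSGACG00000009609, with a difference of 5.12, had 71.4 to 197 CPM (median 169) in the telencephalon and 2.58 to 30.4 CPM (median 3.45) in the diencephalon. Here 2 diencephalon libraries were high, tradeoff male 302 at 30.4 CPM and control male 304 at 29.4 CPM, whereas the other 15 lay between 2.58 and 4.57 CPM.

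ENSGACG00000016370 was close to absent from the diencephalon, with a difference of 5.06. It had 2.76 to 6.49 CPM (median 4.47) in the telencephalon, and in the diencephalon it had no count in 12 of 17 libraries. The other 5 diencephalon libraries held 0.0369 and 0.0516 CPM in challenge males 317 and 330, 0.113 CPM in tradeoff male 302, and 0.159 and 1.31 CPM in control males 307 and 304. ENSGACG00000013917, with a difference of 5.00, had 11.5 to 32.1 CPM (median 24.1) in the telencephalon and 0.151 to 6.06 CPM (median 0.622) in the diencephalon. Its diencephalon value in male 304 was 6.06 CPM, and the highest of the others was 0.877 CPM. ENSGACG00000006863, with a difference of 4.79, was at once among the members with the largest difference and among those with the highest telencephalon CPM. It had 233 to 527 CPM (median 425) in the telencephalon and 8.06 to 148 CPM (median 12.7) in the diencephalon, where all males but 304 stayed at or below 23.2 CPM.

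**Figure D2:**
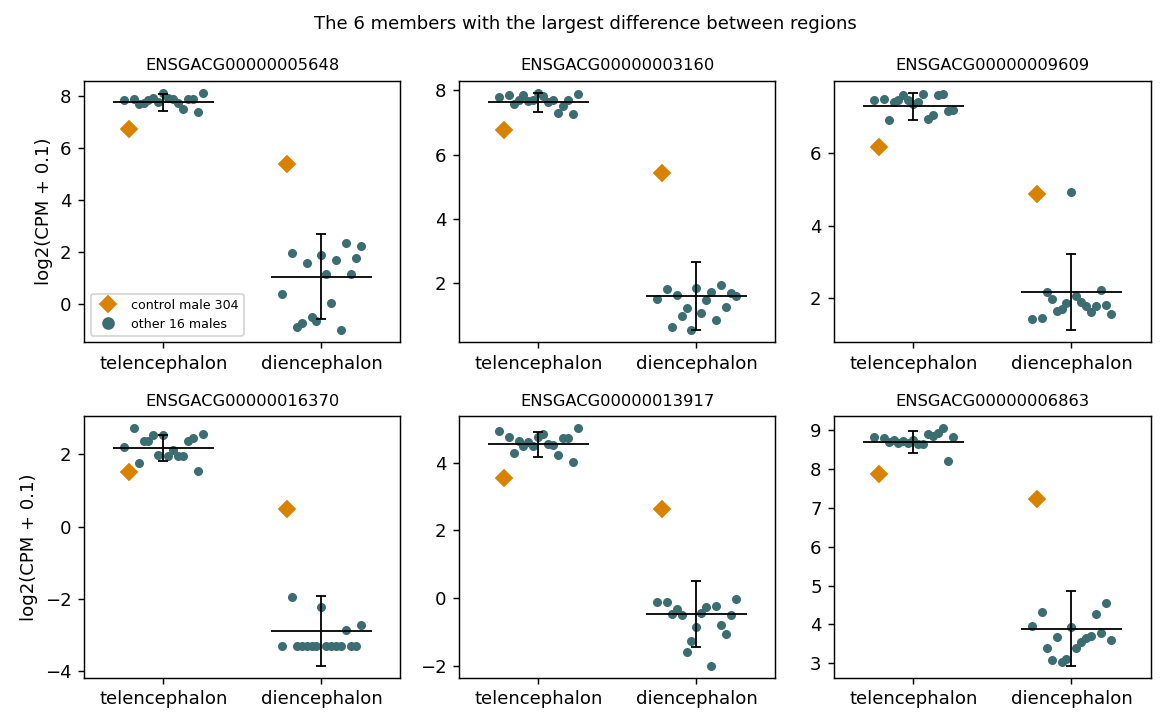
Level, as log2(CPM + 0.1), of the 6 members with the largest difference between regions, telencephalon on the left and diencephalon on the right of each panel, 1 point per male, with the mean and SD over 17 males as black lines. Control male 304 (orange diamonds) has the lowest telencephalon value in all 6 panels and the highest diencephalon value in 5, the exception being ENSGACG00000009609, where tradeoff male 302 has 30.4 CPM and male 304 has 29.4 CPM.

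The members with the highest CPM in the telencephalon were well expressed in the diencephalon too. ENSGACG00000016538 averaged 1327 ± 201 CPM over telencephalon libraries and 109 ± 63.0 CPM over diencephalon libraries (SD, n = 17 each). Its diencephalon mean and SD rest on male 304, at 352 CPM, since the other 16 libraries held 83.3 to 108 CPM. ENSGACG00000016537 averaged 1096 ± 181 CPM in telencephalon and 138 ± 47.6 CPM in diencephalon libraries. ENSGACG00000009117 averaged 779 ± 124 CPM in telencephalon and 138 ± 47.9 CPM in diencephalon libraries. For both of these, too, male 304 had the lowest telencephalon level, 565 and 425 CPM, and the highest diencephalon level, 317 and 309 CPM. CPM values are not corrected for transcript length, so they order levels of one gene across libraries and not levels of different genes.

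The limits of the rule cut through a continuum. Just inside the limit on the difference were ENSGACG00000005324 at 2.001 and ENSGACG00000002630 at 2.003, and just outside were ENSGACG00000009385 at 1.997 and ENSGACG00000002128 at 1.96. Just inside the limit on level were ENSGACG00000004860 at 2.15 CPM and ENSGACG00000012281 at 2.21 CPM, and just outside were ENSGACG00000019395 at 1.998 CPM and ENSGACG00000004358 at 1.99 CPM. The limit on spread was close to only a few genes. ENSGACG00000020086, with an SD of 0.981, and ENSGACG00000002560, with an SD of 0.833, were inside, and ENSGACG00000006630, with an SD of 1.02, and ENSGACG00000017663, with an SD of 2.63, were outside. Of the 138 Ensembl genes that met the limit on the difference, 15 missed only the limit on level and 3 only that on spread. One of these 3, ENSGACG00000006630, had 31.5 CPM in the telencephalon, 0.597 CPM in the diencephalon, and a difference of 5.43, which would have been the third largest.

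The members met the limit on spread, but they were not steadier among telencephalon libraries than other genes. Their SD of L over the telencephalon had a median of 0.359 and a range of 0.125 to 0.981, against a median of 0.187 over the 14868 Ensembl genes with a telencephalon mean of at least 2 CPM. Over the diencephalon, whose spread the rule did not use, the members' SD had a median of 0.441 and a range of 0.209 to 1.73, against 0.160 over the same 14868 genes. Without male 304 the medians were 0.279 in the telencephalon, against 0.183 over the 14868 genes, and 0.328 in the diencephalon, against 0.159. The SD was larger in the diencephalon than in the telencephalon for 88 of the 120 members, compared with 31.4% of the 14868 genes. Without male 304 it was larger for 71 members (59.2%), compared with 33.1%. The rule capped the telencephalon SD of the members and not that of the 14868 genes, so nothing is read from these shares. Members also have lower counts in the diencephalon than in the telencephalon, and the part that counting error plays in their diencephalon SD was not tested.

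A few libraries departed from the others in most members at once. In each library the median over members was taken of L minus that member's median L in the region. It was -0.871 in the telencephalon of control male 304, -0.383 in that of challenge male 322, -0.251 in that of challenge male 298, and between -0.0908 and 0.183 in the other 14. In the diencephalon it was 1.10 in male 304 and between -0.0838 and 0.0956 in the other 16. Male 304 was thus displaced downwards in the telencephalon and upwards in the diencephalon, and males 322 and 298 downwards in the telencephalon. In the diencephalon male 322 had 0.0956, the highest of the other 16 and far below male 304, and male 298 had -0.0815.

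**Figure D3:**
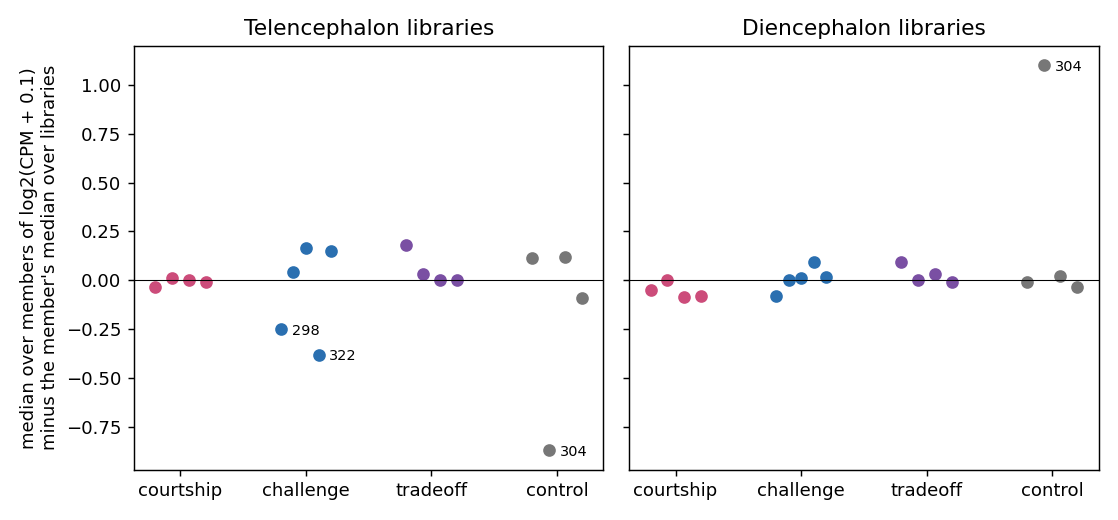
Median over the 120 members of log2(CPM + 0.1) minus the member's median over the libraries of that region, 1 point per library, by treatment of the last trial, telencephalon on the left and diencephalon on the right. The telencephalon of male 304 lies at -0.871 and its diencephalon at 1.10, and the telencephalon of challenge males 322 and 298 at -0.383 and -0.251, while all other libraries lie between -0.0908 and 0.183.

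On the linear scale the same departure can be given as the share of the way from the median of the other males in the library's own region to their median in the other region. In the telencephalon of male 304 the median member lay 54.3% of the way to the diencephalon level, with quartiles of 46.7 and 59.7%. It lay 29.8% of the way in male 322 and 20.9% in male 298, and between -16.9 and 8.94% in the other 14 telencephalon libraries. In the diencephalon of male 304 the median member lay 19.6% of the way to the telencephalon level, with quartiles of 15.4 and 24.0%, and in the other 16 between -1.21 and 1.38%. Single members ranged widely, from -75.8 to 87.9% in the telencephalon of male 304, and the quartiles in the telencephalon were 18.0 and 40.0% in male 322 and -1.37 and 31.0% in male 298.

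The 361 Ensembl genes that meet the same limits with the regions exchanged, which are enriched in the diencephalon, departed in the opposite direction in the same libraries. Their median deviation was 1.98 in the telencephalon of male 304, 0.952 in that of male 322 and 0.438 in that of male 298. The telencephalon of male 304 held the highest telencephalon level of 251 of the 361. In the diencephalon that male held the lowest level of 45 of them, fewer than the 79 of male 322. The median gene of that list lay 45.6% of the way to the diencephalon level in the telencephalon of male 304, 18.5% in that of male 322 and 4.66% in that of male 298. In the diencephalon of male 304 it lay 16.3% of the way to the telencephalon level, with 2 other diencephalon libraries, those of challenge male 317 at 10.1% and tradeoff male 323 at 8.73%, next to it. Male 304 had 19.9% not-unique alignments and 28239431 counts in its telencephalon library, and 3.90% and 23743831 counts in its diencephalon library. These values lay within the ranges of the other males, and whether a technical difference displaced this male was not tested. Mixing of tissue or RNA between the regions was not tested by any independent measure, and the labels give no dissection or extraction batch.

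**Figure D4:**
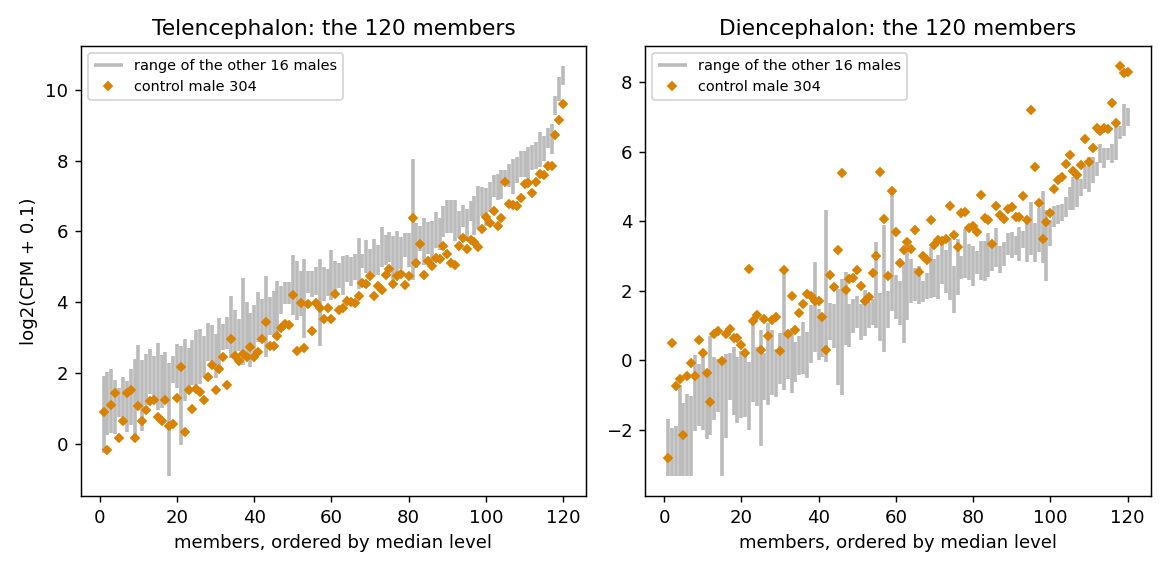
Level of each of the 120 members, as log2(CPM + 0.1), in control male 304 (orange) beside the range of the other 16 males (grey bars), with members ordered by their median in the region, telencephalon on the left and diencephalon on the right. Male 304 has the lowest value of all males for 96 members in the telencephalon and the highest for 96 in the diencephalon, over the whole range of CPM.

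For 81 members male 304 held both the lowest telencephalon and the highest diencephalon value. Its diencephalon value was more than 2-fold above every other diencephalon library for 19 members. With male 304 left out, the telencephalon of male 322 became the lowest for 49 members and that of male 298 for 22, and the telencephalon of challenge male 330 was the highest for 28. In the diencephalon without male 304 no library was the highest for more than 25 members, that of tradeoff male 302. These counts, too, stand without a share of all gene models and describe the members only.

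The diencephalon of tradeoff male 302 was high in some members. It exceeded all 16 other diencephalon libraries, male 304 included, for 7 members, which were picked out after their values were seen. ENSGACG00000009609, ENSGACG00000008062 and ENSGACG00000013159 were close to male 304 there, at 30.4, 11.1 and 11.1 CPM in male 302 beside 29.4, 10.4 and 10.7 CPM in male 304. The 15 other diencephalon libraries held at most 4.57, 5.49 and 7.06 CPM of these genes. ENSGACG00000017889 had 6.98 CPM in the diencephalon of male 302, 3.16 CPM in that of male 304 and at most 2.66 CPM in the others. ENSGACG00000006547, ENSGACG00000009888 and ENSGACG00000017894 had 1.01, 1.75 and 1.63 CPM in male 302 and at most 0.724, 1.15 and 1.54 CPM in the 15 others. The median over all 120 members in the diencephalon of male 302 lay 1.25% of the way to the telencephalon level. That is inside the range of the other males, and the upper quartile was 4.49%. A median does not show how many other members departed, and without male 304 this library was the highest for 25 members.

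Members varied together across libraries. The median correlation between 2 members over the 17 telencephalon libraries was 0.535, against 0.0188 for the 14868 genes, and over the 17 diencephalon libraries it was 0.422, against 0.0331. Without male 304 it was 0.309 in the telencephalon, against 0.0181, and 0.0521 in the diencephalon, against 0.0302. Without that male the members therefore still varied together among telencephalon libraries, in which males 322 and 298 are low for many of them, and hardly did so among diencephalon libraries. These correlations are over the same libraries for every pair and are descriptions.

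Whether a male that is high in one region is also high in the other was measured for each member as the correlation of L between the regions over the 17 males, after subtraction of the treatment means. The median over members was -0.311, and 19 of 120 were above 0. Over the 18923 gene models tested in the joint fit the median was 0.388, and 83.8% were above 0. Without male 304 the members' median was 0.217, with 95 of 120 (79.2%) above 0, against a median of 0.431 and 86.3% above 0 over all tested. The negative sign over members thus rested on male 304 alone, since leaving out any other single male gave medians between -0.354 and -0.287. The gene models tested were not matched to members for level. The part that low diencephalon counts play in the members' correlations was not tested.

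The strongest negative values went with that male. ENSGACG00000016538 had a Pearson r of -0.785 and a Spearman rho of -0.453 between regions (n = 17 males). The r became -0.254 without males 303 and 304, and 0.133 without male 304. Males 303 and 304 were the 2 farthest from the median in the telencephalon after subtraction of the treatment means. ENSGACG00000006863 had a Pearson r of -0.774 and a rho of -0.620, which became -0.368 without males 304 and 322 and -0.337 without male 304. Among positive values, ENSGACG00000004949 had r = 0.734 and rho = 0.711, with r = 0.587 without males 303 and 304 and 0.749 without male 304. It ranged from 2.23 to 6.36 CPM (median 3.15) in the telencephalon and from 0.127 to 1.54 CPM (median 0.424) in the diencephalon. ENSGACG00000020086 had r = 0.692 and rho = 0.620, with r = 0.751 without males 319 and 330. It was the most variable member in the telencephalon, at 24.5 to 262 CPM (median 57.1), and ranged from 6.86 to 29.4 CPM (median 13.4) in the diencephalon. These genes were picked for their r among 120, so no p is given.

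ENSGACG00000020946 had the most variable diencephalon level of all members, with an SD of 1.73 in L, and in that region its males fell into 2 levels. In the diencephalon it was at 16.9, 18.7 and 18.8 CPM in challenge males 322, 330 and 317, at 19.3 CPM in tradeoff male 306 and at 19.9 CPM in control male 303. The other 12 diencephalon libraries held 0.859 to 2.57 CPM, among them all 4 courtship males. In the telencephalon the same 5 males held the 5 highest values, 33.3 to 40.5 CPM, and the other 12 held 12.4 to 29.8 CPM. No 2 levels stood apart there, since the step from 23.3 to 29.8 CPM within the 12 was wider than that to 33.3 CPM. Because the males fall into separate levels in the diencephalon, no correlation over all 17 is given for this gene. Male 304 was among the other 12, with 18.4 CPM in its telencephalon and 1.14 CPM in its diencephalon. At the other end, the diencephalon level varied least for ENSGACG00000013069, with 53.9 to 102 CPM (median 62.8) and an SD of L of 0.209, and for ENSGACG00000017079, with 5.87 to 10.02 CPM (median 8.15) and an SD of 0.210. Both of their highest values were in male 304.

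The treatment of the last trial was not used to choose members, so it can be tested. In the telencephalon the limit on spread was set on these same 17 libraries and bounds the treatment differences that a member can have. Counts, fold sizes and intervals there are therefore descriptions, and nothing is read from low ones. The fits covered all 17 libraries of a region, with 18277 gene models in the telencephalon, all 120 members among them, and 18399 in the diencephalon, 113 members among them. The 7 members left out by the filter on low counts in the diencephalon had means of 0.0425 to 0.185 CPM there. The 3 comparisons with the control share the 4 control males, male 304 among them, and are given side by side. Wherever another control male is left out, male 304 weighs more in the control group.

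No member passed an adjusted p of 0.05 in any of the 14 comparisons within a region (edgeR quasi-likelihood F test, Benjamini-Hochberg adjustment over all genes), and neither did any other gene, so that the background was 0% in each. Limma voom called 0 genes as well. DESeq2 called 0 members and at most 8 genes in a comparison.

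In the telencephalon the members' log2 fold over the control had a median of 0.10 for courtship, 0.12 for the challenge and 0.19 for the tradeoff, against -0.00376, -0.00235 and -0.00535 over all genes. The fold was above 0 for 90, 96 and 106 of the 120 members in these comparisons (75, 80 and 88.3%), against 48.7, 49.2 and 48.3% of all genes. Without male 304 it was so for 39, 38 and 68 members (32.5, 31.7 and 56.7%), against 50.1, 50.1 and 49.9% of all genes. Without that male the median folds were -0.09, -0.06 and 0.01. At an unadjusted p under 0.05 there were 2 members for any treatment (2.49% of all genes), 0 for courtship over control (2.51%), 0 for challenge over control (2.66%) and 4, all higher, for tradeoff over control (2.75%, and 1.06% as higher). There were 2 for tradeoff over courtship (3.81%), 2 for tradeoff over challenge (3.44%) and 3 for courtship over challenge (3.42%). These 7 counts were 5, 1, 5, 2, 4, 4 and 5 without male 304, against 2.56, 2.13, 2.86, 1.92, 3.92, 3.78 and 3.65% of all genes. Without male 303 the counts for any treatment, challenge over control and tradeoff over control were 6, 4 and 12 (3.58, 4.23 and 4.94% of all genes). Without male 307 they were 8, 4 and 12 (3.15, 3.35 and 3.59%), with 6 for courtship over control (3.95%). Without male 322 there were 6 for challenge over control (3.37%). Over all males left out one at a time the 7 counts ranged from 0 to 8, 0 to 6, 0 to 6, 2 to 12, 1 to 5, 1 to 4 and 1 to 5. The 5 for tradeoff over courtship is without male 321 (4.75% of all genes). No share of all genes is given beside every low end, so these ranges describe the members only.

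In the diencephalon, whose spread the rule did not use, the 95% interval of the fold over the control lay within 2-fold either way for 50 (44.2%), 61 (54.0%) and 57 (50.4%) of 113 members in the courtship, challenge and tradeoff comparisons, against 88.4, 89.2 and 88.0% of all genes. Without male 304 it was so for 74, 74 and 71 of 113 members (65.5, 65.5 and 62.8%), against 86.3, 87.0 and 85.9% of all genes. In the diencephalon intervals this narrow were thus less frequent among these genes than among all genes. The rule takes genes that are lower in the diencephalon than in the telencephalon, and all genes were not matched to them for level. The part that low counts play in the width of the intervals was not tested.

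In the diencephalon with all males the members were mostly lower after every kind of social trial than in the control. Without male 304 a smaller shift remained for courtship, and none to speak of for the challenge or the tradeoff. The courtship median was then -0.11, while the median standard error of a member's fold was 0.25, with 3 control males. Whether this shift exceeds the spread among males was not tested. The log2 fold over the control had a median of -0.45 for courtship, -0.36 for the challenge and -0.33 for the tradeoff, against -0.000128, 8.2e-05 and -0.00218 over all genes. It was below 0 for 107, 98 and 96 of the 113 members, and without male 304 for 77, 49 and 58. At an unadjusted p under 0.05 there were 34 members for courtship over control, all lower, while 2.34% of all genes passed and 1.18% passed as lower. There were 22 for challenge over control, all lower (2.61% of all genes, 1.27% lower), and 13 for tradeoff over control, all lower (3.14% of all genes, 1.42% lower). Without male 304 the median folds were -0.11, 0.03 and -0.00170, and the counts were 7, 2 and 5 (2.69, 2.21 and 4.35% of all genes). No member passed the adjustment with or without that male.

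The same counts moved the other way when another control male was left out. Male 304 is then 1 of 3 control males and weighs more, so these counts are not separate from that male. For courtship over control they ranged from 7 to 47 over all males left out one at a time. The 7 is without male 304, where 2.69% of all genes passed. No share of all genes is given beside the 47, which describes the members only. Without male 303 there were 38 for challenge over control (4.81% of all genes) and 30 for tradeoff over control (5.3%), and without male 307 there were 26 for tradeoff over control (2.35%). Without male 308 there were 34 for the challenge (2.77%) and 35 for the tradeoff (3.05%). Leaving out courtship male 329 gave 22 for courtship over control (2.17%), and leaving out challenge male 322 or 330 gave 14 each for challenge over control (2.13 and 2.27%). For any treatment 14 members had an unadjusted p under 0.05 (2.72% of all genes), with 5 without male 304 (2.89%) and 25, 22 and 27 without males 303, 307 and 308 (3.98, 2.73 and 3.2%). Between social treatments there were 3 members for tradeoff over courtship (4.51%), 1 for tradeoff over challenge (3.53%) and 3 for courtship over challenge (3.93%). These 3 comparisons contain no library of male 304. Leaving that male out changes only what the fit shares across groups, and the counts became 9, 5 and 10 (4.48, 3.73 and 3.95% of all genes). Over all males left out one at a time they ranged from 1 to 9, 0 to 5 and 0 to 10. The lowest counts were those without male 302 for tradeoff over courtship (3.94%), without males 298 and 322 for tradeoff over challenge (3.55 and 2.92%), and without males 317 and 322 for courtship over challenge (3.47 and 2.79%).

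**Figure D5:**
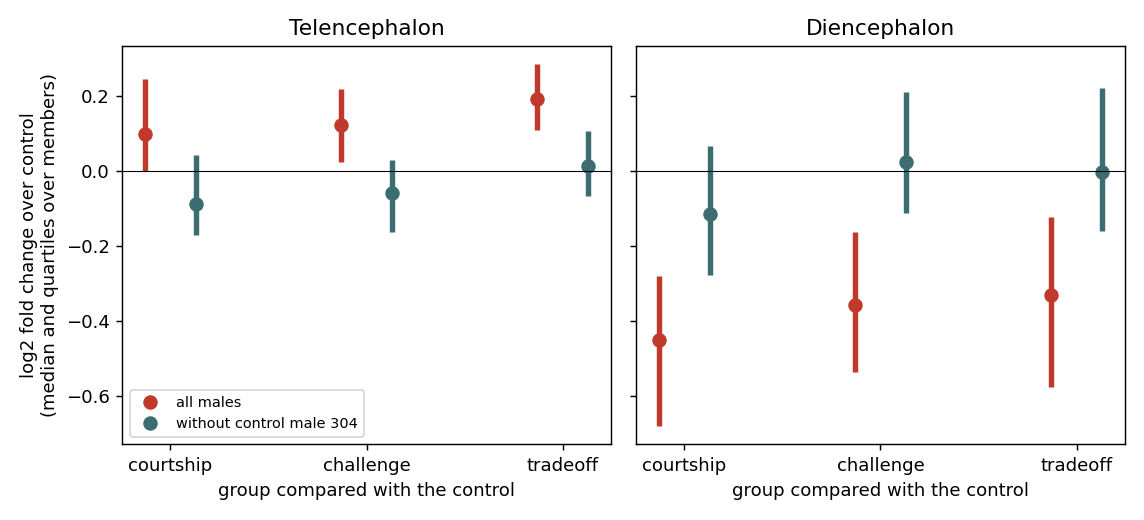
Median (points) and quartiles (bars) over members of the log2 fold change of each social treatment over the control, with 120 members in the telencephalon on the left and 113 in the diencephalon on the right, with all males (red) and without control male 304 (green). In the diencephalon the medians of -0.45, -0.36 and -0.33 move to -0.11, 0.03 and -0.00170 when male 304 is left out.

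Summed over members the picture was the same. They made 0.133% ± 0.00518 of the counts in the diencephalon of courtship males (SD, n = 4), 0.146% ± 0.0108 in challenge males (n = 5), 0.148% ± 0.00960 in tradeoff males (n = 4) and 0.187% ± 0.0938 in control males (n = 4). Without male 304 the control share was 0.140% ± 0.00738 (n = 3), between those of the courtship and challenge males. In the telencephalon the shares were 1.05% ± 0.0461 in courtship males, 1.05% ± 0.167 in challenge males, 1.11% ± 0.0733 in tradeoff males and 0.977% ± 0.268 in control males, or 1.11% ± 0.0870 in control males without male 304 (n = 3).

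The response of a gene to a treatment in the telencephalon minus its response in the diencephalon was tested over all 34 libraries, with 18923 gene models and all 120 members. The limit on spread bounds the telencephalon part of this difference for members and not for other genes. Counts and sizes set beside all genes are therefore descriptions here too. No member and no other gene passed the adjustment for courtship, challenge or tradeoff (background 0% each), and limma voom called 0 genes. DESeq2 called 0 members and 1, 11 and 1 genes. The members' median of this difference in log2 fold was 0.58 for courtship, 0.48 for the challenge and 0.55 for the tradeoff, against -0.00166, 0.00751 and 0.00299 over all genes. At an unadjusted p under 0.05 there were 28, 18 and 26 members, all higher, against 2.24, 1.73 and 2.04% of all genes, and 0.814, 0.565 and 0.671% as higher. Without male 304 the medians were 0.03, -0.14 and -0.03 and the counts 2, 3 and 4, against 1.51, 1.62 and 1.08% of all genes. Without control male 303 the counts were 54, 40 and 44 (2.75, 2.25 and 3.06% of all genes), and without control male 307 they were 54, 38 and 46 (2.83, 2.37 and 2.57%). Without challenge male 322 there were 29 for the challenge (2.51%), and without tradeoff male 306 or 323 there were 16 each for the tradeoff (1.79 and 1.64%). All these counts come from a fit that takes the libraries of the same male as independent. With the male as a replicate block, which compares the regions within each animal, there were 8, 7 and 7 members. Of all genes 3.68, 2.83 and 3.2% passed, and again no member passed after adjustment.

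ENSGACG00000015734 had the lowest p for any treatment in the telencephalon (edgeR unadjusted p = 0.0313, adjusted p = 0.99997). It had 64.1, 73.2, 74.5 and 75.3 CPM in courtship males, 57.7, 61.1, 72.6, 75.9 and 86.8 CPM in challenge males, 86.2, 89.0, 90.2 and 106 CPM in tradeoff males, and 48.0, 71.9, 77.9 and 80.1 CPM in control males. All tradeoff males exceeded all courtship and control males, and 1 challenge male lay within the tradeoff range. Since the gene was picked for its low p, nothing is read from groups that do not overlap. The log2 fold of tradeoff over control was 0.42 (SE 0.15, interval 0.11 to 0.74), and without male 304, whose value is the 48.0 CPM, it was 0.28 (SE 0.12). In the diencephalon the gene had 14.3 to 16.1 CPM in courtship males, 15.8 to 21.0 CPM in challenge males, 18.0 to 21.6 CPM in tradeoff males and 15.9 to 30.7 CPM in control males. In that region, in the same animals, tradeoff and courtship males did not overlap (log2 fold 0.38, SE 0.15, unadjusted p = 0.0243, adjusted p = 0.9995, edgeR). In this comparison 4.51% of all genes had an unadjusted p under 0.05 (edgeR), and nothing is read from this separation either.

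ENSGACG00000000622 was the next (edgeR unadjusted p = 0.0331, adjusted p = 0.99997). Its telencephalon values were 10.4, 11.9, 12.3 and 13.7 CPM in courtship males, 6.37, 7.02, 7.62, 8.57 and 9.19 CPM in challenge males, 5.78, 6.81, 8.82 and 10.2 CPM in tradeoff males, and 5.52, 8.55, 12.2 and 12.9 CPM in control males. Courtship males thus lay above all challenge and tradeoff males, and the control males overlapped with all 3 groups. For this gene, too, which was picked for its p, nothing is read from the separation. The log2 fold of courtship over challenge was 0.62 (SE 0.22, interval 0.17 to 1.08). ENSGACG00000018955 followed at an unadjusted p of 0.125 (edgeR, adjusted p = 0.99997). It had 2.54 to 3.11 CPM in courtship males, 0.979 to 3.31 CPM in challenge males, 2.42 to 5.14 CPM in tradeoff males and 1.03 to 4.84 CPM in control males, which overlap throughout.

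ENSGACG00000017959 had the lowest p of the members for any treatment in the diencephalon (edgeR unadjusted p = 0.00337, adjusted p = 0.9998), and it kept a low p without male 304 (edgeR unadjusted p = 0.00986, adjusted p = 0.999). It had 0.694, 0.708, 0.7499 and 0.905 CPM in courtship males, 0.363, 0.543, 0.722, 0.848 and 0.931 CPM in challenge males, 0.312, 0.407, 0.619 and 1.02 CPM in tradeoff males, and 1.10, 1.52, 1.53 and 1.99 CPM in control males. Every control male exceeded every male of the social treatments. The gene was picked for its low p among the members, so nothing is read from this separation. The log2 fold over the control was -1.01 (SE 0.35) for courtship, -1.15 (SE 0.33) for the challenge and -1.37 (SE 0.36) for the tradeoff, and without male 304 it was -1.03, -1.17 and -1.39. At these levels a library holds few counts, the lowest being 6. In the telencephalon the same gene had 2.37 to 4.41 CPM in courtship males, 2.53 to 5.197 CPM in challenge males, 2.89 to 5.51 CPM in tradeoff males and 2.27 to 5.10 CPM in control males, and the groups overlapped. The difference in response between the regions had the lowest p of all members for the tradeoff (log2 1.66, SE 0.46, edgeR unadjusted p = 0.00115, adjusted p = 0.99996), and 1.499 (SE 0.49) without male 304.

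The other members with the lowest diencephalon p had their highest diencephalon value in male 304. ENSGACG00000013917 (edgeR unadjusted p = 0.00528, adjusted p = 0.9998) had 0.234 to 0.708 CPM in courtship males, 0.381 to 0.877 CPM in challenge males, 0.151 to 0.728 CPM in tradeoff males, and 0.622, 0.825, 0.835 and 6.06 CPM in control males. Its log2 fold of courtship over control was -2.14 (SE 0.66), and -0.72 (SE 0.48) without male 304, where the p for any treatment was 0.413 (edgeR, adjusted p = 0.999). ENSGACG00000006863 (edgeR unadjusted p = 0.00958, adjusted p = 0.9998) had 8.06, 8.44, 8.51 and 12.7 CPM in courtship males, 12.0, 13.04, 13.6, 19.2 and 23.2 CPM in challenge males, 10.4, 11.7, 12.5 and 15.1 CPM in tradeoff males, and 10.4, 15.5, 19.8 and 148 CPM in control males. The 148 CPM is that of male 304, and without it the log2 fold of courtship over control was -0.71 (SE 0.26), against -2.33 (SE 0.68) with it. Courtship over challenge, which does not involve male 304, was -0.79 with an SE of 0.65 in the full fit and of 0.23 without that male (edgeR unadjusted p = 0.00362, adjusted p = 0.999).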

How the data were processed

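RNA was measured in 34 libraries of 17 males. The authors deposited raw, unnormalized read counts for each gene model. Alignment with STAR and counting with HTSeq are named in the submitters' processing notes; for versions, build, annotation and strand setting, not given in the sources used here, nothing was assumed, and so reads of overlapping or antisense genes and near-identical copies cannot be told apart. The 5 summary rows of each file name no gene and were left out. No-feature reads made 38.5% ± 1.03 of a telencephalon library and 35.3% ± 1.09 of a diencephalon library (SD, n = 17 each). No identifier matched the reference table of 52177 genes, and all marker lists were left unused.

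CPM and L were computed from the counts without further scaling. Members, lists and tests were chosen with earlier results of these data known. Treatments were tested with edgeR 4.0.16 in R 4.3.3 (TMM, filterByExpr, robust quasi-likelihood F test) over the 17 libraries of a region, and differences of response over all 34 libraries in a fit of 8 groups, with Benjamini-Hochberg adjustment over all genes at 0.05 and 95% intervals. The scripts were tested on simulated counts. Limma 3.58.1 (voom), DESeq2 1.42.0, other normalization and filters, fits of only the groups compared and leaving out each male were tried. Named genes are the 6 members with the largest difference, the 4 with the highest telencephalon CPM, those nearest each limit, the 3 with the lowest unadjusted p for any treatment in each region, the 2 least and 2 most variable in the diencephalon, and the 3 highest and 2 lowest correlations between regions.

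Both libraries with a given replicate number come from a single male, so the number pairs them. After the group means were subtracted, a male's regions correlated over genes at 0.357 on average (range 0.0835 to 0.502, 17 males), whereas regions of different males had a median of -0.0197. Within groups no library appeared to be deposited more than once: chi-square per degree of freedom was 12.3 to 98.1 in the 56 pairs. This check does not cover pairs of libraries from different groups. Reads were counted without molecular identifiers, so counts are not independent molecules.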

Additional observations from a re-analysis of the deposited data

Results flagged for a closer look

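A search for libraries distant from their own group covered 152 sets of 4 or 5 libraries, for the named members and the members' median deviation. The gap to the nearest library exceeded the critical share of the group's range in 12 sets, and 5 of the 12 belong to control male 304. For independent sets chance alone gives about 1 set in 20. The named members were picked from these same values and their sets share libraries, so the 12 cannot be set against that rate.

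The members' median deviation in the diencephalon of control male 304 was 1.10, with the other control males between -0.0353 and 0.0216. In the control group the same male had 6.06 CPM of ENSGACG00000013917 in the diencephalon, with the others between 0.622 and 0.835 CPM, and 352 CPM of ENSGACG00000016538, with the others between 88.9 and 96.4 CPM. In its telencephalon it had 233 CPM of ENSGACG00000006863, with the other control males between 411 and 455 CPM, and 565 CPM of ENSGACG00000016537, with the others between 1103 and 1190 CPM. Challenge male 322 had 294 CPM of ENSGACG00000006863 in the telencephalon, with the other challenge males between 449 and 527 CPM.

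In the diencephalon, tradeoff male 302 had 30.4 CPM of ENSGACG00000009609, with the other tradeoff males between 3.37 and 4.10 CPM. It also had 0.113 CPM of ENSGACG00000016370, with the others at 0. Where all others are at 0 any count is flagged, and 0.113 CPM is a level of a few counts. Courtship male 319 had 2.90 CPM of ENSGACG00000005648, with the other courtship males between 0.505 and 0.609 CPM, and 12.7 CPM of ENSGACG00000006863, with the others between 8.06 and 8.51 CPM. Courtship male 299 had 0.859 CPM of ENSGACG00000020946, with the others between 1.69 and 1.86 CPM. Challenge male 330 had 0.206 CPM of ENSGACG00000018955, with the others between 0.0423 and 0.0738 CPM, which are levels of a few counts.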

How the results depend on the processing

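The number of members depended on the constant added to CPM. With 1 in place of 0.1 there were 78, of which 77 were among the 120, and with 0.5 there were 101, of which 100 were. TMM factors gave 136 and no minimum on level gave 135, both with all 120 among them. Leaving out each male in turn gave 115 to 128 members. The median correlation between regions over members ranged from -0.354 to 0.217 when each male was left out, the 0.217 being without male 304, and lay between -0.315 and -0.291 under the other settings. Counts of members past an adjusted p of 0.05 were 0 under every tool, normalization, filter and left-out male that was run. The replicate block, which pairs the regions of a male, left the counts past the adjustment at 0. Its unadjusted counts for the differences of response were 8, 7 and 7 members (3.68, 2.83 and 3.2% of all genes). Without the block they were 28, 18 and 26 (2.24, 1.73 and 2.04%). Over the other settings, left-out males aside, the unadjusted counts in the diencephalon ranged from 18 to 37 for courtship over control, 10 to 24 for challenge over control and 5 to 15 for tradeoff over control. DESeq2 gave 37, 22 and 15 members (2.27, 2.56 and 3.14% of all genes). Limma voom gave 24, 10 and 14 (2.18, 2.33 and 3.14%). For the remaining settings no share of all genes is given, so the ranges describe the members only. Chosen after seeing the data, TMM factors gave 98 members lowest in the telencephalon and 94 highest in the diencephalon of male 304, and 111 without overlap between regions. Depth limits the members under 1 CPM in the diencephalon, and groups of 4 or 5 males limit all treatment comparisons.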
